A study of Mus musculus with 6 samples.

Results

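The calcineurin, NFAT and Rcan genes were followed through whole-lung RNA of R26Foxf1; Tie2-cre embryos. The set held 10 of the 19057 genes with a probe, namely Rcan1, Rcan2, Rcan3, Ppp3ca, Ppp3cb, Ppp3r1, Nfatc1, Nfatc2, Nfatc3 and Nfatc4, and every probe that the array annotation gave to one of them was taken, 34 of the 45281 probes on the array. Each probe was kept apart, because probes of a gene can read different transcripts. At E18.5, 3 lungs of R26Foxf1; Tie2-cre embryos and 3 of controls (R26-LSL-Foxf1) were hybridized singly to Illumina mouse BeadChips. Both groups carried Foxf1 knocked into the ROSA26 locus behind a lox-STOP-lox cassette. In R26Foxf1; Tie2-cre embryos, which were heterozygous, the Tie2-cre transgene removes the stop in endothelial and hematopoietic cells, while the control label names no Cre. The allele was made in a C57BL/6N embryonic stem cell line, and the study describes the controls as littermates without giving the litter of each lung.

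Calcineurin is a phosphatase switched on by calcium and calmodulin. It has a catalytic A subunit (Ppp3ca, Ppp3cb or Ppp3cc) and a regulatory B subunit, of which Ppp3r1 is the broadly expressed form, and it strips phosphates from the NFAT transcription factors so that they enter the nucleus. Rcan proteins bind calcineurin and restrain it. Rcan1 is itself transcribed from an upstream start and from an internal start, and the internal one is a known NFAT target that responds to calcium and VEGF in endothelium. Loss of calcineurin B in the lung epithelium of mice disturbs lung maturation around birth, and Nfatc1 is needed for heart valve endothelium.

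Because the 2 detected Rcan1 probes gave unlike results, the 250 bases before each of the 2 Rcan1 starts are shown, from RefSeq with build GRCm38.p6 and read on the minus strand of chromosome 16. GGAAA, the core of an NFAT site, and its reverse complement TTTCC are in capitals. The upstream start lies 66091 bases from the internal start.
Rcan1 upstream start, chr16:92466170-92466419: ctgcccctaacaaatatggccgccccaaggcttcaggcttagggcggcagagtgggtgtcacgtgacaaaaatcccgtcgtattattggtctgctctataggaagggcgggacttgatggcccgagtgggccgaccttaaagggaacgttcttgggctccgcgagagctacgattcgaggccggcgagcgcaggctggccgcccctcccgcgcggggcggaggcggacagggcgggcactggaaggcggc
Rcan1 internal start, chr16:92400079-92400328: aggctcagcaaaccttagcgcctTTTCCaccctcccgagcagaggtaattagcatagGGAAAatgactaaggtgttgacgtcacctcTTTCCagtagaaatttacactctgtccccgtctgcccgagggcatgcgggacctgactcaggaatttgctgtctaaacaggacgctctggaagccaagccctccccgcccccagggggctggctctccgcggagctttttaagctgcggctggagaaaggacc
The upstream window held 0 matches. The internal window held 3, 1 as GGAAA and 2 as TTTCC. Counting both strands, 55.6% of all 32851 promoter windows of this length held at least 1 match and 6.4% held at least 3. For the set as a whole, windows were found for 8 of the 10 genes, with 13 starts, and 8 of the 13 starts held at least 1 match. Ppp3cb, Nfatc4 and 1 Nfatc2 start also held 3 each. These are counts of letters, and binding was not measured. The array annotation gives both detected Rcan1 probes the same transcript, so it does not tell which start each of them reads.

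Of the 34 probes, 18 were detected on all 6 arrays (detection p under 0.01) and were tested, and they covered 9 of the 10 genes. Another 15 were detected on no array, and 1 Rcan2 probe (ILMN_3033007) was detected only in control replicate 3. Values are log2 signals after background correction and quantile normalization, compared between groups with limma. A probe was called at a Benjamini-Hochberg adjusted p under 0.05 over all 20118 tested probes with a fold change of at least 1.2. A level is compared here only with that of the same probe in other lungs, and a difference between Rcan1 probes only with the same difference in other lungs.

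Between 19831 and 20043 probes were detected per lung. Foxf1 itself (ILMN_2667396) had a log2 fold change of 0.31 (SE 0.17, adjusted p = 0.285, limma) with all 3 R26Foxf1; Tie2-cre lungs above the controls, and the annotation does not say whether its probe reads the knocked-in copy. Of 10 endothelial marker genes 8 were detected, and the mean log2 signal over all 10, detected or not, was 10.65 to 10.78 in R26Foxf1; Tie2-cre lungs and 10.49 to 10.70 in controls. Means of the other marker lists were likewise taken over every gene with a probe, and some tissues differed between lungs or groups. Lymphocyte and thymus genes averaged 7.47 and 8.26 in control replicates 1 and 2 but 5.37 to 5.43 in the other lungs, skeletal muscle genes averaged 7.43 to 8.87 in R26Foxf1; Tie2-cre lungs and 9.60 to 11.81 in controls, and heart muscle genes averaged 8.61 in R26Foxf1; Tie2-cre replicate 1 and 10.66 to 12.36 elsewhere. Xist was not detected in R26Foxf1; Tie2-cre replicate 3 and was detected in the other lungs. Eif2s3y on the Y chromosome was detected only in that lung, at 8.96 on ILMN_1241001 against 4.26 to 4.44 elsewhere, while its other probe was detected on no array. By these genes that lung reads as male and the others as female, so the groups were not matched for sex. In whole lung, fewer cells of a type and less RNA per cell cannot be told apart.

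Across the set, 1 of the 18 tested probes was called, an Rcan1 probe that was lower in R26Foxf1; Tie2-cre lungs. That is 5.56%, beside 4.51% of all tested probes in either direction. No member was called higher, against 2.43% of all tested probes, and 1 was called lower, against 2.09%. Groups did not overlap for 7 probes (38.9%), beside 31.9% of all tested probes. In 5 of them the R26Foxf1; Tie2-cre lungs were all above the controls, which 18.5% of all tested probes also showed, and in 2 they were all below, as in 13.4%. An unadjusted p under 0.05 was reached by 4 probes (22.2%), beside 26.2% over the array. The mean was higher in R26Foxf1; Tie2-cre lungs for 14 of the 18 probes and lower for 4, beside 54.9% higher over all tested probes, with a median log2 fold change of 0.12, beside 0.03 over all tested probes. The median size of the change regardless of sign was 0.19 for the set and 0.18 over the array, so the sizes of change in the set were close to those of the array.

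**Figure D1:**
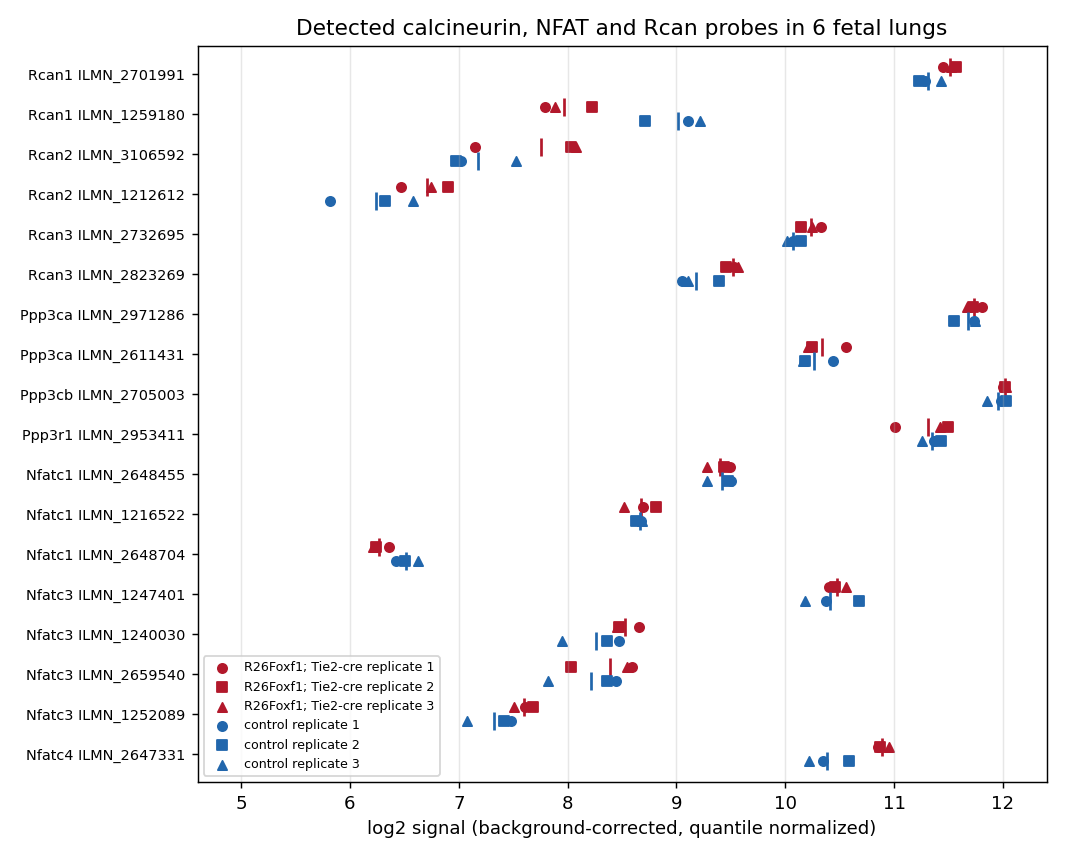
Log2 signal of each of the 18 detected probes (rows, named by gene and probe) in the 3 R26Foxf1; Tie2-cre lungs (red) and the 3 control lungs (blue), with marker shape giving the replicate number and a vertical tick the group mean. The groups stand farthest apart for Rcan1 ILMN_1259180, at 7.79 to 8.22 against 8.71 to 9.22.

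Among the calcineurin regulators, the Rcan1 probe ILMN_1259180 fell. Its log2 signal was 7.79, 8.22 and 7.88 in R26Foxf1; Tie2-cre replicates 1, 2 and 3 and 9.10, 8.71 and 9.22 in control replicates 1, 2 and 3. All 3 R26Foxf1; Tie2-cre lungs were below all controls, and the nearest pair was replicate 2 of each group. The log2 fold change was -1.05 (SE 0.17, 95% confidence interval -1.44 to -0.65), a 2.06-fold lower signal with an adjusted p of 0.0357 (limma). On the values that the authors deposited, which are variance-stabilized, the difference was -0.67 with an adjusted p of 0.0319. That scale compresses differences at dim signals, so its size is not a log2 fold change to set beside the other.

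The other detected Rcan1 probe, ILMN_2701991, was not lower. It gave 11.45, 11.57 and 11.53 in R26Foxf1; Tie2-cre lungs and 11.28, 11.23 and 11.43 in controls, so that all R26Foxf1; Tie2-cre lungs were above the controls by a small margin. The log2 fold change was 0.20 (SE 0.10, 95% confidence interval -0.04 to 0.44) and was not called (adjusted p = 0.257). The third Rcan1 probe, ILMN_2469555, was detected on no array, with log2 values of 4.56 to 4.94.

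Within each lung the signal of ILMN_1259180 minus that of ILMN_2701991 was -3.66, -3.34 and -3.64 in R26Foxf1; Tie2-cre lungs and -2.18, -2.51 and -2.22 in controls. The group means differed by -1.24. This contrast was drawn with the unlike results of the probes known, so it restates them and is given as a description. An exact two-sided permutation test gave p = 0.1, the smallest that 3 against 3 lungs allow, and could not have passed. On the array, a lower signal was supported on ILMN_1259180 alone, and the sign on ILMN_2701991 was not settled. The study names Rcan1 among its downregulated genes and reports that quantitative RT-PCR verified the array result for it. Those RT-PCR values were not part of the data used here.

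**Figure D2:**
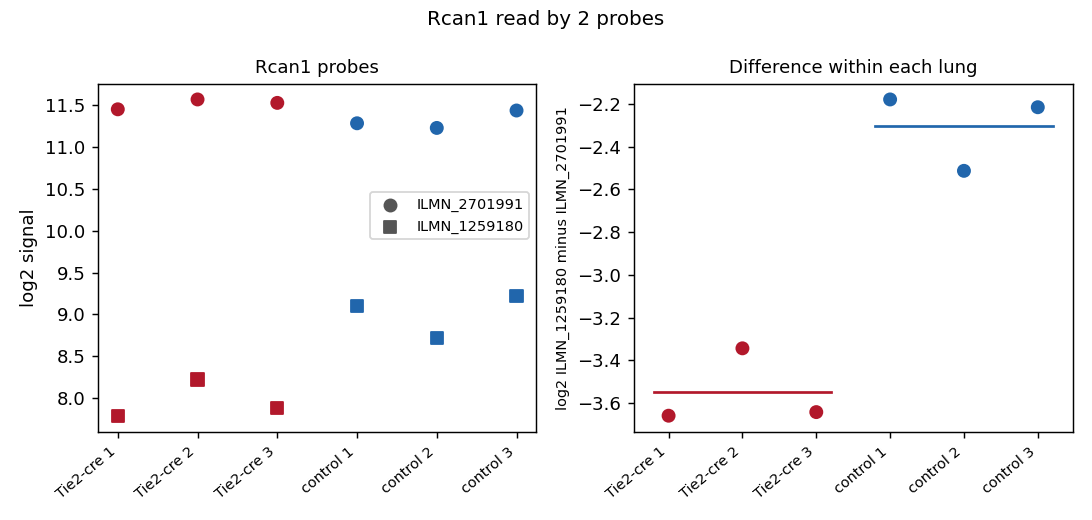
Rcan1 in each lung, with R26Foxf1; Tie2-cre in red and control in blue: left, the log2 signals of probes ILMN_2701991 (circles) and ILMN_1259180 (squares); right, the second minus the first on the log2 scale, with lines at the group means. The difference lies between -3.66 and -3.34 in R26Foxf1; Tie2-cre lungs and between -2.51 and -2.18 in controls, on an axis that does not start at 0.

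The mean of ILMN_1259180 was lower in R26Foxf1; Tie2-cre lungs under every alternative run, and 7 of 10 processing settings called it (adjusted p from 0.0150 to 0.139). It missed the threshold with no filter on dim probes (adjusted p = 0.0714), with a variance trend and robust moderation (adjusted p = 0.135) and by the methods' test on the deposited values (adjusted p = 0.139). With 1 lung left out it stayed past the threshold only without R26Foxf1; Tie2-cre replicate 2 (adjusted p = 0.0402) or without control replicate 2 (adjusted p = 0.0221), and the adjusted p rose as high as 0.128 without R26Foxf1; Tie2-cre replicate 3 or control replicate 1. It was 0.0934 without R26Foxf1; Tie2-cre replicate 1 and 0.0859 without control replicate 3. Without control replicates 1 and 2, the lungs with lymphocyte and thymus signal, the log2 fold change was -1.27 with an adjusted p of 0.0765.

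Skeletal muscle, which expresses Rcan1, moved with this result. All 7 muscle genes with a probe were detected on at least 3 arrays, their summed linear signal was 2112 to 10246 in R26Foxf1; Tie2-cre lungs and 12689 to 61652 in controls, and Myog, the muscle regulator myogenin, was detected in the 3 controls and in no R26Foxf1; Tie2-cre lung. Within the R26Foxf1; Tie2-cre lungs the order was the same. Mean muscle signal was 7.43, 8.87 and 8.51 in replicates 1, 2 and 3, beside 7.79, 8.22 and 7.88 for ILMN_1259180. Within the controls the order was not the same: control replicate 2 had the most muscle signal and the lowest ILMN_1259180 value, 8.71. The detected myeloid genes had lower means too, and none was called. Of 7 with a probe 6 were detected on all arrays. The summed linear signal of the list was 5430 to 11745 in R26Foxf1; Tie2-cre lungs and 12827 to 16926 in controls. Lyz2 was by far the brightest of them, so this sum mostly reads Lyz2. Csf1r, Adgre1, Fcgr3 and C1qa had log2 fold changes of -0.15, -0.28, -0.19 and -0.02 with overlapping groups, and Cd14 had -0.30 without overlap. Lyz2 (ILMN_1252076), the lysozyme of macrophages and alveolar type II cells, gave 12.57, 13.35 and 12.02 against 13.80, 13.49 and 13.92, a log2 difference of -1.09 that was not called (adjusted p = 0.0816). Its highest R26Foxf1; Tie2-cre lung and its lowest control were replicate 2 of each group, as for ILMN_1259180. The part of muscle or myeloid cells in the Rcan1 difference was not tested.

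The 5 probes whose pattern over the 6 lungs was most like that of ILMN_1259180 were chosen by the smallest root mean square difference of centred log2 signals, so their direction is given by the choice. They were Mat2b ILMN_1248381 (0.0712), Slc29a1 ILMN_2638299 (0.0831), 2410002F23Rik ILMN_1219278 (0.0848), Pfkp ILMN_2673233 (0.0885) and Mat2b ILMN_1246268 (0.0910). Mat2b regulates synthesis of S-adenosylmethionine, Slc29a1 is a nucleoside transporter and Pfkp is a phosphofructokinase of glycolysis. Other detected probes of the same genes, which the choice did not use, had smaller differences, and for some of them the mean was higher. The log2 fold change of Mat2b ILMN_2959037 was -0.18 (adjusted p = 0.328), that of Slc29a1 ILMN_2888144 was 0.07 (adjusted p = 0.773), and those of 2410002F23Rik ILMN_2629648 and ILMN_2965641 were 0.40 and 0.42 (adjusted p = 0.110 and 0.0794). For Pfkp the other probe, ILMN_1237695, went the same way, at -0.57 (adjusted p = 0.0957). None of these 5 other probes was called.

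Rcan2, a calcineurin inhibitor abundant in heart, muscle and brain, had a higher mean with Tie2-cre on both detected probes, and neither passed. ILMN_3106592 read 7.15, 8.03 and 8.08 in R26Foxf1; Tie2-cre lungs and 7.02, 6.98 and 7.53 in controls. Its log2 fold change was 0.58 (95% confidence interval -0.05 to 1.21, adjusted p = 0.220), and R26Foxf1; Tie2-cre replicate 1 lay among the controls. ILMN_1212612 read 6.47, 6.90 and 6.74 against 5.81, 6.32 and 6.57, a log2 fold change of 0.47 (95% confidence interval -0.01 to 0.95, adjusted p = 0.199) with overlapping groups. Leaving out lungs moved both: ILMN_1212612 was 0.26 without control replicate 1 and ILMN_3106592 was 0.87 without R26Foxf1; Tie2-cre replicate 1, and without control replicates 1 and 2 they were 0.13 and 0.23. On the deposited variance-stabilized scale the differences were 0.29 for ILMN_3106592 and 0.14 for ILMN_1212612.

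Heart muscle genes varied between lungs beside Rcan2. Their mean log2 signal was 8.61, 12.36 and 11.84 in R26Foxf1; Tie2-cre replicates 1, 2 and 3 and 10.66, 11.14 and 12.22 in control replicates 1, 2 and 3. R26Foxf1; Tie2-cre replicate 1 had the least heart signal of its group and was lowest there on both Rcan2 probes. Control replicate 1 had the least among controls. It was the lowest control on ILMN_1212612, but on ILMN_3106592 it read 7.02 and control replicate 2 read 6.98. The difference in mean heart signal, R26Foxf1; Tie2-cre minus control, was -0.40, beside 0.58 for ILMN_3106592 and 0.47 for ILMN_1212612. Only R26Foxf1; Tie2-cre replicate 1 lay below the controls in heart signal, and replicate 2 of that group lay above them. By gene the sign was mixed. The log2 fold change was 0.28 for Myh6 and 0.44 for Tnni3, and from -0.34 to -1.27 for Myl4, Myl7, Actc1, Nppa and Sln. All 7 heart genes were detected on at least 3 arrays, and Nppa, the atrial natriuretic peptide gene, was not detected in R26Foxf1; Tie2-cre replicate 1. The summed linear signal of the list was 6293 to 70532 in R26Foxf1; Tie2-cre lungs and 20046 to 61122 in controls. The part of heart tissue in the Rcan2 values was not tested.

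**Figure D3:**
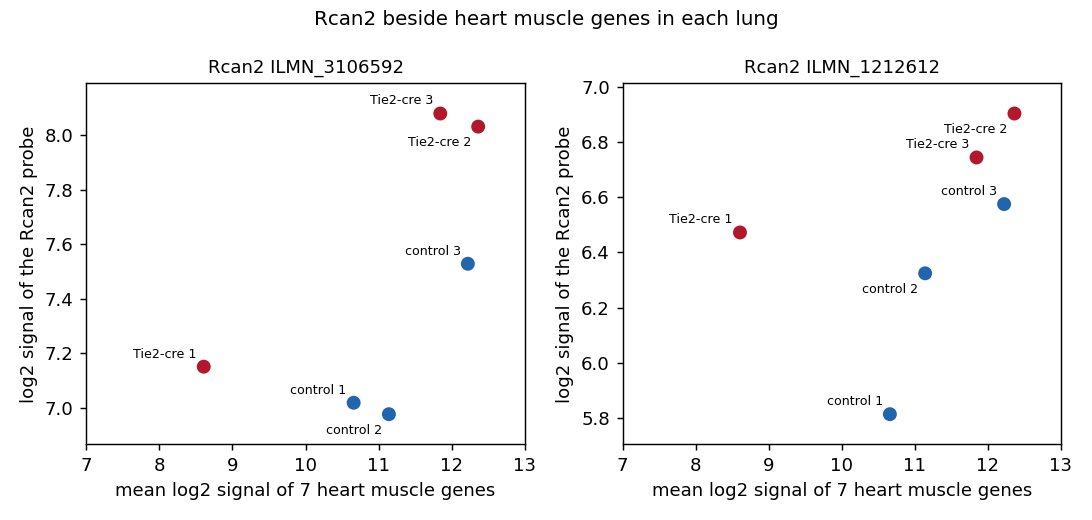
Log2 signal of 2 Rcan2 probes (vertical axes, ILMN_3106592 left and ILMN_1212612 right) against the mean log2 signal of 7 heart muscle genes (horizontal axis) in each lung, with R26Foxf1; Tie2-cre in red and control in blue. R26Foxf1; Tie2-cre replicate 1 had the least heart signal, 8.61, and the lowest value of its group on both probes.

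Rcan3, the remaining Rcan gene, had groups that did not overlap on either detected probe, and no call was made. ILMN_2823269 gave 9.52, 9.45 and 9.57 against 9.05, 9.39 and 9.11. Its log2 fold change was 0.34 (SE 0.12, 95% confidence interval 0.06 to 0.61, adjusted p = 0.128). ILMN_2732695 gave 10.32, 10.15 and 10.25 against 10.07, 10.14 and 10.01, with a difference of 0.16 on the log2 scale (adjusted p = 0.329). The margin between the nearest lungs was small for both, at replicate 2 of each group.

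The calcineurin subunits differed little between the groups. Ppp3cb, a catalytic subunit, was read by 1 probe (ILMN_2705003) at 12.00, 12.02 and 12.03 in R26Foxf1; Tie2-cre lungs and 11.98, 12.03 and 11.85 in controls. Its log2 fold change was 0.06 (95% confidence interval -0.16 to 0.29, adjusted p = 0.705). The catalytic subunit Ppp3ca had log2 fold changes of 0.06 on ILMN_2971286 (95% confidence interval -0.18 to 0.30, adjusted p = 0.750) and 0.07 on ILMN_2611431 (95% confidence interval -0.24 to 0.39, adjusted p = 0.762), with groups that overlapped on both. For the regulatory subunit Ppp3r1, ILMN_2953411 gave 11.01, 11.49 and 11.42 against 11.36, 11.43 and 11.26. R26Foxf1; Tie2-cre replicate 1 was the lowest lung, and the log2 fold change was -0.04 (95% confidence interval -0.38 to 0.30, adjusted p = 0.885). The intervals of all 4 probes reached past 0.26, the log2 of the 1.2-fold threshold, so an increase of that size lay within them.

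Among the NFAT factors, Nfatc4, which is expressed in vessel walls and heart as well as lung, had the largest difference and just missed the threshold. ILMN_2647331, its only probe, gave 10.85, 10.87 and 10.95 in R26Foxf1; Tie2-cre lungs and 10.34, 10.59 and 10.22 in controls. The 3 R26Foxf1; Tie2-cre lungs lay close together and above every control. The log2 fold change was 0.51 (SE 0.12, 95% confidence interval 0.23 to 0.79), 1.42-fold, with an adjusted p of 0.0554 (limma). Of 10 alternative processing settings, 4 called it higher, with adjusted p from 0.0232 to 0.146 over the 10. With 1 lung left out it was called only without control replicate 2, the highest control (adjusted p = 0.0292). Without any other single lung it was not called, with adjusted p from 0.0970 to 0.169.

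Nfatc3 was read by 4 detected probes, all with a higher mean in the R26Foxf1; Tie2-cre group and none called. ILMN_1252089 gave 7.61, 7.68 and 7.51 against 7.48, 7.42 and 7.07, a log2 difference of 0.28 (adjusted p = 0.231) with no overlap. ILMN_1240030 gave 8.66, 8.48 and 8.46 against 8.48, 8.36 and 7.95, a log2 difference of 0.27 (adjusted p = 0.304). Control replicate 3 was the lowest lung on all 4 probes. The other probes, ILMN_2659540 and ILMN_1247401, had log2 fold changes of 0.18 and 0.06 (adjusted p = 0.636 and 0.812), and these were -0.02 and -0.05 without that lung. Without it the values of ILMN_1252089 and ILMN_1240030 were 0.15 and 0.11.

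For Nfatc1, the NFAT factor of valve and lymphatic endothelium, 3 of 6 probes were detected. ILMN_2648455 and ILMN_1216522 had log2 fold changes of -0.02 (95% confidence interval -0.28 to 0.24, adjusted p = 0.935) and 0.01 (95% confidence interval -0.24 to 0.27, adjusted p = 0.948). The dimmer signal of ILMN_2648704 was below all controls in each R26Foxf1; Tie2-cre lung, at 6.36, 6.24 and 6.21 against 6.42, 6.51 and 6.63. Its log2 fold change was -0.25 (95% confidence interval -0.49 to -0.01) and was not called (adjusted p = 0.172).

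Nfatc2, the NFAT factor first known from T cells, was not detected. Its 7 probes had detection p-values of 0.0406 or more and log2 signals of 4.25 to 4.89, also in control replicates 1 and 2, where the T cell gene Cd3g (ILMN_2722784) reached 9.78 and 11.37. Lack of detection by these probes does not show that the RNA was absent. Over all 16 untested probes of the set, log2 signals ran from 4.25 to 5.77.

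**Figure D4:**
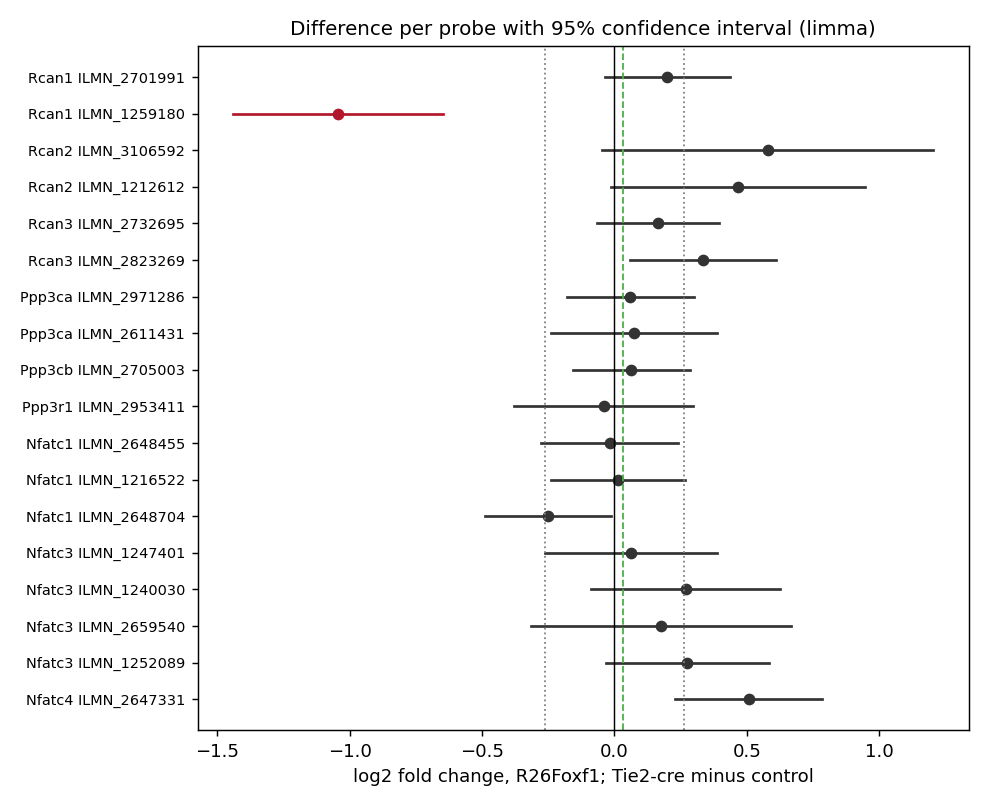
Log2 fold change (R26Foxf1; Tie2-cre minus control) of the 18 tested probes, with bars for the 95% confidence interval from limma, dotted lines at 1.2-fold in either direction and a dashed line at the median of all tested probes, 0.03. The called probe, Rcan1 ILMN_1259180 at -1.05, is in red, and Nfatc4 ILMN_2647331 at 0.51 is the only other probe whose interval stays clear of 0 by more than 0.2.

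Around these genes, 8 further lists of the pathway held 66 genes, of which 61 had a probe and 46 a tested probe. Of their 71 tested probes 2 were called higher and none lower, 2.82% beside 4.51% over the array, and 20 had an unadjusted p under 0.05. The mean was higher in R26Foxf1; Tie2-cre lungs for 37 of the 71, beside 54.9% over the array, and the median log2 fold change was 0.04.

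Mef2c, a transcription factor that works with NFAT in muscle and vessels, rose on 1 of its probes. ILMN_1220270 gave 8.31, 7.79 and 8.18 in R26Foxf1; Tie2-cre lungs and 7.38, 7.45 and 7.20 in controls, a log2 fold change of 0.75 (SE 0.15, adjusted p = 0.0442). Its other 3 tested probes, ILMN_2887992, ILMN_2732465 and ILMN_1214950, had values of 0.62, 0.51 and 0.40 (adjusted p = 0.0505, 0.0615 and 0.360). Mef2c was thus higher on average with every tested probe, unlike Rcan1. Gsk3b, a kinase that returns NFAT to the cytoplasm, rose on ILMN_2593888, with 9.34, 9.15 and 9.52 against 8.87, 8.68 and 8.72, a log2 fold change of 0.58 (adjusted p = 0.0481), while ILMN_2551852 gave -0.05 (adjusted p = 0.808). The Gsk3b call was lost with any 1 lung left out (adjusted p from 0.0541 to 0.140). Leaving out 1 lung took the pathway count from 2 to between 0 and 3 probes: it was 0 without R26Foxf1; Tie2-cre replicate 1, R26Foxf1; Tie2-cre replicate 3, control replicate 1 or control replicate 3, and 3 without R26Foxf1; Tie2-cre replicate 2 (Mef2c, Chp1 and Egr3) or control replicate 2 (Mef2c, Calm2 and Csnk1d).

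No probe was called among the other subunits, calmodulins, calcium channels and binding proteins. Calm2, 1 of the calmodulin genes, had probes that pointed in opposite directions. ILMN_2451115 gave 8.82, 8.83 and 8.85 against 8.26, 8.52 and 8.22 (log2 fold change 0.49, adjusted p = 0.0505), and ILMN_2856697 gave 11.15, 11.34 and 11.06 against 11.37, 11.43 and 11.77 (log2 fold change -0.34, adjusted p = 0.177). The groups did not overlap on either of these probes. They overlapped on the remaining tested Calm2 probe, ILMN_2775885 (log2 fold change 0.07, adjusted p = 0.785). Chp1, a calcineurin B homologue that inhibits calcineurin, gave 5.97, 7.44 and 6.53 against 8.11, 7.62 and 8.44 on ILMN_1250000, a log2 fold change of -1.41 (SE 0.37, adjusted p = 0.0697). As for Rcan1 ILMN_1259180, replicate 2 was the highest R26Foxf1; Tie2-cre lung and the lowest control. Myoz1, a calcineurin-binding protein of the muscle Z disc, had a log2 fold change of -1.74 that did not pass, with 9.20 in control replicate 2, the lung with the most skeletal muscle signal, and 4.50 to 6.00 in the other lungs.

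The catalytic subunit gene Ppp3cc had log2 fold changes of 0.31 and 0.05 on ILMN_1233999 and ILMN_2617820, and the calcium sensor Stim1 had 0.74 on ILMN_2580803, a dim probe detected on 5 arrays, but 0.40 on ILMN_1216313 and -0.13 on ILMN_2734646. Trpc6, a calcium entry channel, had 0.58 on ILMN_2582925 (adjusted p = 0.0697), a dim probe detected on 4 arrays, and 0.06 on ILMN_2915118. None of these was called.

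Among 13 NFAT target genes, 4 had a tested probe and none of the 5 tested probes was called. Egr3, an immediate early gene, had the largest difference, with 8.09, 7.28 and 7.94 against 6.90, 7.26 and 6.92 on ILMN_1227494 (log2 fold change 0.75, adjusted p = 0.0897) and a log2 fold change of 0.32 on ILMN_2653543. The cytokine genes Il2, Il4, Ifng and Tnf were detected on no array, whereas Csf2 (ILMN_2749412) was detected on all 6, at 7.82, 7.45 and 7.30 against 7.87, 7.34 and 7.64 (adjusted p = 0.778). The surfactant and lamellar body list held 9 genes, among them the transcription factors Foxa1, Foxa2 and Nkx2-1. Calcineurin signalling in the epithelium is known to affect surfactant genes in mice. All 9 genes of the list had a tested probe and none was called. Sftpb, a surfactant protein gene, had a log2 fold change of -0.30 on ILMN_2733762 (adjusted p = 0.195) but -0.02 on the similarly bright ILMN_2792670 (adjusted p = 0.940). Abca3, the lipid transporter of lamellar bodies, had 0.27 on ILMN_2514655 (adjusted p = 0.126), 0.25 on ILMN_3150233 (adjusted p = 0.182) and -0.06 on ILMN_1243488 (adjusted p = 0.832).

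**Figure D5:**
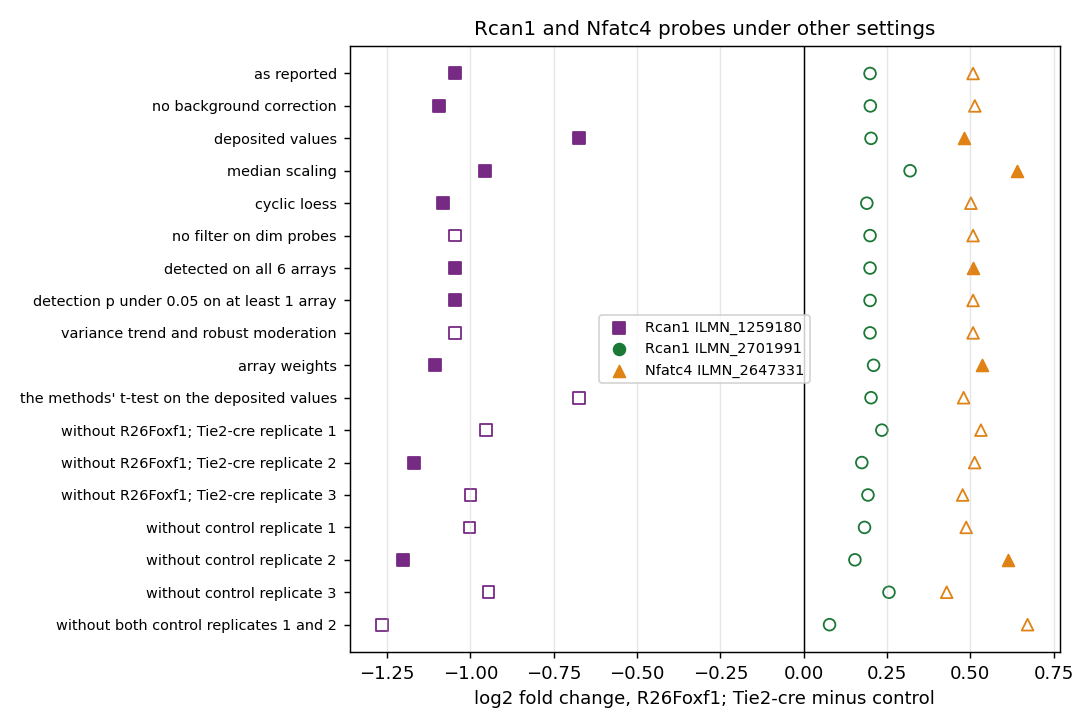
Log2 fold change (R26Foxf1; Tie2-cre minus control) of Rcan1 ILMN_1259180 (squares), Rcan1 ILMN_2701991 (circles) and Nfatc4 ILMN_2647331 (triangles) under each processing setting or with lungs left out (rows), filled where the probe was called. On the log2 scale ILMN_1259180 lies between -1.27 and -0.95 and Nfatc4 between 0.43 and 0.67, with a call in some rows only. The rows on the deposited values are differences on the variance-stabilized scale, at -0.67 for ILMN_1259180 and 0.48 for Nfatc4.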

How the data were processed

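Signals were measured with Illumina mouse WG-6 v2.0 BeadChips in 6 whole lungs, 3 per group. The authors deposited a background-subtracted signal intensity per probe (25.5% to 28.5% of values per lung were below 0) with a detection p-value, and a table of log2-like values after variance stabilization and robust spline normalization with lumi. The intensities were processed with neqc in limma 3.58.1 (R 4.3.3; offset 16, log2, quantile normalization), probes detected (p under 0.01) on 3 or more of the 6 arrays entered the fit, and groups were compared with lmFit and eBayes, with Benjamini-Hochberg adjustment over 20118 probes. Depth has no meaning for arrays, and 3 lungs per group limit the precision.

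Genes were taken from the array annotation, updated by gene ID (34807 of 34885 single symbols matched); no coordinate of a probe was used. Members, lists and tests were chosen with earlier results of these data known. Named genes were every member probe, in each further list the probes past the threshold (at most 6 per direction) or else the 2 largest changes, and the 5 probes most like the called member probe. The methods' two-sample test on deposited values, other backgrounds, scalings, detection filters and variance models, a replicate block and each lung left out served as alternatives.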

Additional observations from a re-analysis of the deposited data

How the results depend on the processing

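The number of calcineurin, NFAT and Rcan probes called (1) was 2 with the deposited values, median scaling, detection on all 6 arrays or array weights, and 0 with no filter on dim probes, a variance trend with robust moderation or the methods' t-test on the deposited values. Leaving out 1 lung gave 0 to 2, and leaving out both control replicates 1 and 2 gave 0. For the 71 further pathway probes, the count (2) was 0 without background correction, with no filter, with detection p under 0.05 on at least 1 array, with the variance trend or with the t-test, 1 with cyclic loess, 4 with median scaling or detection on all 6 arrays, 7 with the deposited values and 10 with array weights; it was 0 to 3 with 1 lung left out and 0 without both controls. Over the whole array the count (908) was 516 without background correction, 58 without a filter, 250 with the looser detection limit, 2491 with array weights, and 0 with the variance trend, the t-test or without both controls. It ran from 2 to 1700 with 1 lung left out: 2 without R26Foxf1; Tie2-cre replicate 3, 17 without R26Foxf1; Tie2-cre replicate 1 or control replicate 1, 92 without control replicate 3, 360 without R26Foxf1; Tie2-cre replicate 2 and 1700 without control replicate 2. The share of calls that were higher was 53.7%, 61.7% with median scaling and 39.3% with cyclic loess. The study itself reports deregulated genes from its t-test at the same thresholds. The t-test run here used the detection filter described above and took the fold threshold on the variance-stabilized scale. The study took fold changes after reversing that transformation, so the count of 0 is not a repeat of its result. For Rcan1 ILMN_1259180 and Nfatc4 ILMN_2647331 the fold threshold was passed on that scale (-0.67 and 0.48). Both missed on the adjusted p of the t-test (0.139 and 0.144).

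A replicate block lowered the counts to 0 members, 0 further pathway probes and 46 probes in all. With the block the adjusted p of Rcan1 ILMN_1259180 was 0.0929, and the difference between the Rcan1 probes had an exact p of 0.25. The replicate 1 lungs deviated together (r = 0.29 over 20118 probes) and the others did not (r = -0.04 and -0.03), and R26Foxf1; Tie2-cre replicates 2 and 3 correlated best with another number, so numbers were not used to match lungs.

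Of 324 member values under 18 alternatives, 292 kept direction and side of the threshold, 9 lost the call, 5 gained it and 18 changed sign, all of them in probes with a main log2 fold change under 0.2. Ppp3cc ILMN_2617820 and Egr3 ILMN_2653543 (main log2 fold change 0.32), listed below as well, are further pathway probes outside these counts. Median scaling turned Ppp3r1 to 0.0924 and Nfatc1 ILMN_2648455 to 0.107, cyclic loess turned Nfatc1 ILMN_1216522 to -0.0277 and Ppp3cc ILMN_2617820 to -0.0059, and array weights turned Ppp3ca ILMN_2611431 to -0.0066. With 1 lung left out, the log2 fold change ran from -0.0033 to 0.0957 for Ppp3ca ILMN_2971286, from -0.0365 to 0.161 for Ppp3ca ILMN_2611431, from -0.131 to 0.111 for Ppp3r1, from -0.0875 to 0.0431 for Nfatc1 ILMN_2648455, from -0.0575 to 0.0941 for Nfatc1 ILMN_1216522, from -0.0531 to 0.196 for Nfatc3 ILMN_1247401, from -0.0184 to 0.353 for Nfatc3 ILMN_2659540 and from -0.0831 to 0.156 for Ppp3cc ILMN_2617820. Without both control replicates 1 and 2, Ppp3ca ILMN_2971286 was -0.0109, Ppp3r1 0.052, Nfatc1 ILMN_2648455 0.120, Nfatc1 ILMN_1216522 -0.0095, Ppp3cc ILMN_2617820 -0.177 and Egr3 ILMN_2653543 -0.0195. The causes were not tested.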
